A study of Rattus norvegicus with 6 samples.

Results

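The collagen and laminin genes, which code for the chains of the fibrillar, basement membrane and microfibrillar extracellular matrix, were examined in rat spinal cord with T cell mediated inflammation, with transferred human antibody, with both or with neither. Members were the targets whose gene name on the array, after removal of the ending _predicted or _mapped, begins as a collagen or laminin chain symbol (Col, number, a, number, or Lama, Lamb or Lamc with a number). Of the 36410 targets of the array, 51 met this rule, under 44 names and with 71 probes. Among them, Col4a3bp codes for a ceramide transfer protein and is no collagen chain, which leaves 50 targets of 43 chains: 13 fibrillar, 3 type IV, 14 laminin and 20 other collagen targets.

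All groups were adult Lewis rats, and RNA came from formaldehyde-fixed, paraffin-embedded spinal cord. ENMO rats (experimental neuromyelitis optica) received T cells specific for myelin basic protein on day 0 and, on day 4, NMO-IgG, a human IgG preparation that contains antibodies to the astrocytic water channel aquaporin 4. EAEcoI rats (experimental autoimmune encephalomyelitis) received the same T cells and normal human IgG as control IgG, and EAEcoP rats the same T cells and PBS. These 3 groups are called all T. The NMO-IgG only and control IgG only groups received no T cells, the healthy control group was left untreated, and these 3 groups are called all non-T. Treated rats were killed 24 hours after the antibody or PBS. Each group was measured on 1 one-colour array that carried RNA pooled from 5 rats, or 3 for the healthy control, so that no group had a replicate and differences between single animals were not measured. In such bulk tissue, fewer cells of a type and less RNA per cell cannot be told apart.

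Fibrillar collagens (types I, II, III, V, XI, XXIV and XXVII) form the tensile fibrils of connective tissue. Type IV collagen and laminin form separate sheet-like networks, which nidogen and perlecan link into basement membranes. In the spinal cord, basement membranes line blood vessels and the surface below the pia mater, and astrocyte endfeet rest on them. Laminins are trimers of an alpha, a beta and a gamma chain. Fibrillar collagen is largely found in the meninges, nerve roots and the walls of larger vessels, and little of it lies in the healthy parenchyma.

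Levels are given as normalized signal intensity (NSI), the scanner software's processed signal after quantile normalization over the 6 arrays, on a linear scale. Probes bind unequally, so NSI compares arrays for 1 target and not targets with each other. Between 35.4 and 60.2% of the spots of an array were well above background by the scanner's own mark. Across the 24967 targets tested, EAEcoP had the lowest correlation with the other arrays (Pearson's r from 0.64 to 0.77, a description over targets of shared arrays). Over the 11202 targets well above background on all 6 arrays, the median log2 difference of all T minus all non-T was -0.29, and it went from -0.66 for probes of up to 40% GC to 0.63 for probes above 60% GC. Of the markers of the labelled tissue, 6 of 8 oligodendrocyte targets were well above background on all 6 arrays, the myelin genes Mbp and Mog among them. Cnp and Mag were above it on 4. Of the 8 neuron targets, 2 were above it on all 6 arrays, the cholinergic neuron gene Chat among them. Nefl and Nefh were above it on 4 arrays, Stmn2 on 1 and the Syt1 targets on 2 and 0. The astrocyte genes S100b and Slc1a3 were above it on none, and Aqp4 on 1. Of the other astrocyte genes, Aldh1l1 was above it on 5 arrays. Gfap was above it on 4 and 3 arrays for its 2 targets, and Slc1a2 on 4 and 1. The SD between 2 arrays that spots of 1 probe imply, called the spot spread, was 0.71 on the log2 scale, a fold of 1.63. It covers the spread between spots of an array, and not amplification, hybridisation or the animals. As 1 SD, it is a mark for description and no test.

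Chains of every class were detected. Of the 50 chain targets, 24 were well above background on all 6 arrays (48%, against 30.8% of all targets), 18 on 1 to 5 arrays and 8 on none. Detected throughout were 8 of 13 fibrillar targets, 2 of 3 type IV, 6 of 14 laminin and 8 of 20 other collagen targets. The chain targets not above background on any array were those of Col11a1, Col15a1, Col17a1, Col22a1, Col24a1 and Lamb1 and one target each of Col5a2 and Lamc1, and Col4a3bp was also below background throughout. Lamb1 and Lamc1 code for the beta and gamma chain that most laminins of vessels share, and the other Lamc1 target was above background on 5 arrays.

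**Figure D1:**
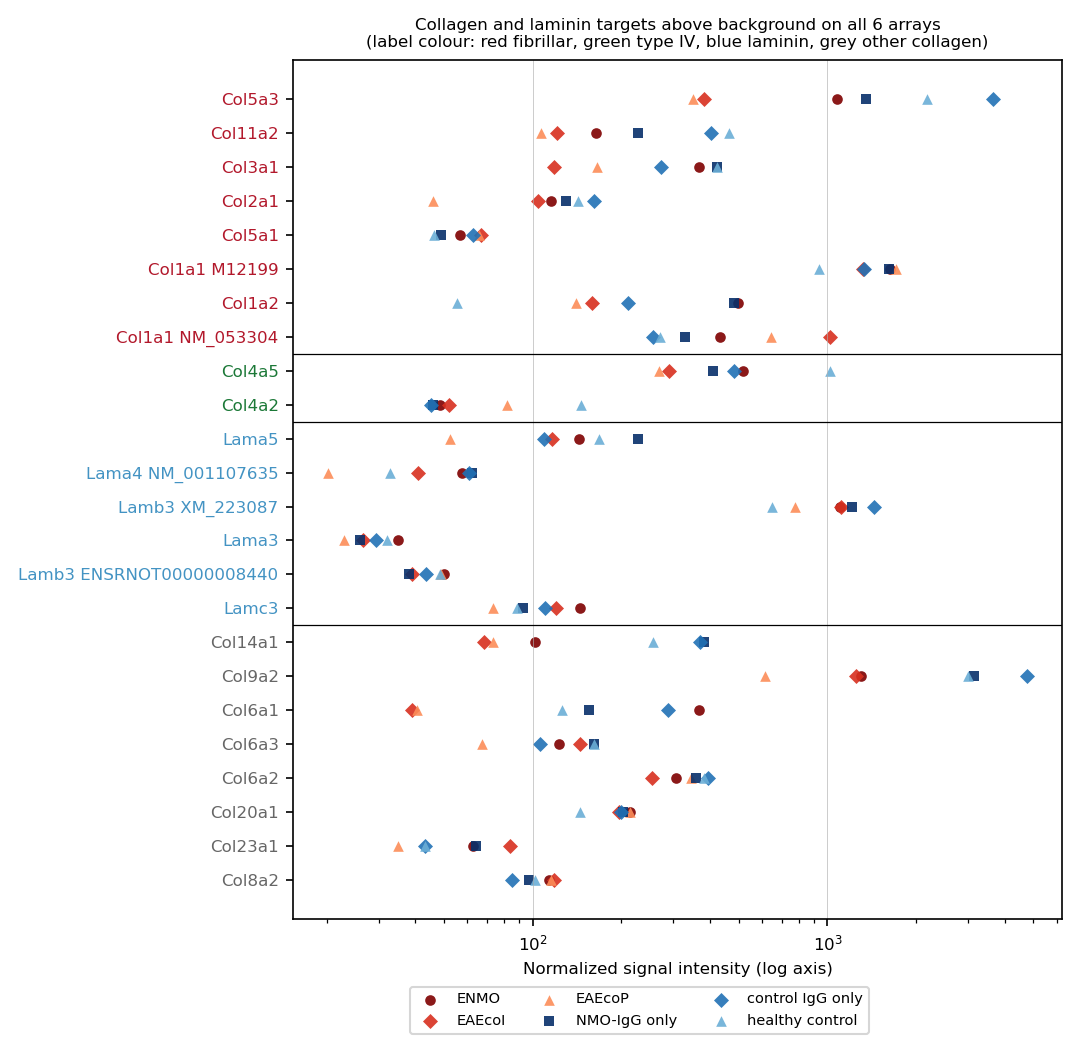
NSI (log axis) of the 24 collagen and laminin targets well above background on all 6 arrays, one symbol per array, sorted within each class by the all T minus all non-T difference. Red and orange symbols are the all T arrays and blue symbols the all non-T arrays; for Col5a3, Col11a2, Col14a1 and Col9a2 every all T symbol lies left of every blue symbol.

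The fibrillar chains did not move one way with T cells. Col5a3, the alpha 3 chain of type V collagen, which joins into type I fibrils, and Col11a2, a chain of the cartilage fibril collagen XI, were lower on each all T array than on any all non-T array, while one of the Col1a1 targets was higher on each. Col5a3 NSI was 1076 (ENMO), 382 (EAEcoI) and 348 (EAEcoP), against 2177 (healthy control), 3652 (control IgG only) and 1352 (NMO-IgG only). The groups did not overlap, though ENMO came near NMO-IgG only. The log2 difference was -2.08 (SE 0.64, limma adjusted p = 0.283), a 4.22-fold lower geometric mean with T cells. Col11a2 NSI was 163 (ENMO), 121 (EAEcoI) and 107 (EAEcoP), against 465 (healthy control), 402 (control IgG only) and 228 (NMO-IgG only). Its log2 difference was -1.44 (SE 0.53, limma adjusted p = 0.3603). Col2a1, the chain of the main collagen of cartilage, had NSI of 115 (ENMO), 104 (EAEcoI) and 45.7 (EAEcoP), against 142 (healthy control), 161 (control IgG only) and 130.1 (NMO-IgG only), and its groups were also apart, with ENMO and EAEcoI within 1.63-fold of all 3 all non-T arrays. Its other probe overlapped between the groups.

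Col3a1, whose product forms the thin fibrils of vessel walls and soft tissue, was low on the EAE arrays and not in ENMO. Its NSI was 367 (ENMO), 118 (EAEcoI) and 165 (EAEcoP), against 422 (healthy control), 272 (control IgG only) and 423 (NMO-IgG only). The ENMO array lay within the range of the all non-T arrays, and the log2 difference of all T minus all non-T was -0.92 (SE 0.58). Col1a2, which pairs with Col1a1 in type I collagen, had NSI of 499 (ENMO), 159 (EAEcoI) and 140.0 (EAEcoP), against 55.6 (healthy control), 211 (control IgG only) and 482 (NMO-IgG only). On this probe the 2 highest arrays were those that carried NMO-IgG, and the lowest was the healthy control. The other Col1a2 probe, above background on all 6 arrays, had another order. It was highest in NMO-IgG only (223) and control IgG only (192), then ENMO (159), and lowest in EAEcoP (40.8). Col5a1, the main chain of type V collagen, was 56.6 (ENMO), 66.9 (EAEcoI) and 65.8 (EAEcoP), against 46.2 (healthy control), 62.5 (control IgG only) and 48.98 (NMO-IgG only), and all 6 arrays lay within 1.63-fold of each other.

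Col1a1, the chain that makes up most of type I collagen, had 2 targets on the array that were well above background throughout, and they gave different values. Their probes are shown because the last 7 bases of the first lie on the same positions as the first bases of the second (capitals), so that they read neighbouring parts of the coding end of one transcript. The overlap holds 6 equal bases and the substitution G4A, with the base of the first probe named first and positions counted from 1 at the 5′ end of the overlap. The scanner files place them on the forward strand at chr10:83637903-83637962 and chr10:83637956-83638015, in a rat build named only as rn, whose version is not given, and the second ends on the stop codon.
Col1a1, target M12199: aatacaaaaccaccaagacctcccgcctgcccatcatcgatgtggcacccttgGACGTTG
Col1a1, target NM_053304: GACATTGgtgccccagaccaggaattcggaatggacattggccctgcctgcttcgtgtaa

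The first probe (M12199) had NSI of 1631 (ENMO), 1324 (EAEcoI) and 1704 (EAEcoP), against 937 (healthy control), 1327 (control IgG only) and 1612 (NMO-IgG only), a log2 difference of 0.29 (SE 0.50). The second (NM_053304) had NSI of 433 (ENMO), 1022 (EAEcoI) and 645 (EAEcoP), against 271 (healthy control), 256 (control IgG only) and 329 (NMO-IgG only), a log2 difference of 1.22 (SE 0.53, limma adjusted p = 0.436), or 2.32-fold higher with T cells. The first overlapped between the groups and the second did not. Another Col1a1 probe, of the target NM_053304 and with 35% GC where the others have 55%, was above background on 5 arrays and went the other way, with NSI of 33.6 (ENMO), 4.04 (EAEcoI) and 34.4 (EAEcoP), against 25.4 (healthy control), 107 (control IgG only) and 56.3 (NMO-IgG only). With all probes averaged in place of the brightest, the log2 difference of NM_053304 was -0.23, so that its direction rests on which probe is read.

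Among the basement membrane chains, no target well above background on all 6 arrays had groups apart. Col4a5, a type IV chain of basement membranes in kidney, smooth muscle and some other tissues, had the larger difference of the 2 type IV targets above background on all 6 arrays, -0.77 (SE 0.57, limma adjusted p = 0.613). Its NSI was 518 (ENMO), 291 (EAEcoI) and 268 (EAEcoP), against 1019.8 (healthy control), 480.5 (control IgG only) and 409.8 (NMO-IgG only). The healthy control was highest, and ENMO lay above both antibody-only arrays. Col4a2, which with Col4a1 makes the ubiquitous type IV trimer, had NSI of 48.6 (ENMO), 52.1 (EAEcoI) and 81.7 (EAEcoP), against 146 (healthy control), 45.2 (control IgG only) and 45.7 (NMO-IgG only), a log2 difference of -0.18 (SE 0.62). Its healthy control value stood above the others, and without that array the log2 difference was 0.38. Col4a4, of the kidney and lens type IV trimer, was above background on 2 arrays, with NSI of 3.604 (ENMO), 3.37 (EAEcoI) and 7.64 (EAEcoP), against 9.02 (healthy control), 9.75 (control IgG only) and 25.3 (NMO-IgG only). Its groups were apart, with a log2 difference of -1.53 (SE 0.62, limma adjusted p = 0.406). A target that the array names as Col4a4 only in its description, outside the rule, overlapped between the groups. Its log2 difference was 0.28, and it was also above background on 2 arrays.

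The laminin alpha chains set the type of a laminin. Lama4, of endothelial basement membranes, had NSI of 57.6 (ENMO), 40.8 (EAEcoI) and 20.2 (EAEcoP), against 32.7 (healthy control), 60.8 (control IgG only) and 62.2 (NMO-IgG only). Lama5, which joins Lama4 in vessels, had NSI of 144 (ENMO), 116 (EAEcoI) and 52.5 (EAEcoP), against 168 (healthy control), 109 (control IgG only) and 228 (NMO-IgG only). Both were lowest in EAEcoP and overlapped between all T and all non-T, and Lama5 had the most negative laminin difference among the targets above background on at least 3 arrays, -0.75 (SE 0.59, limma adjusted p = 0.629). It was 0.48 with the mean over its 3 probes. Lama2, of the glial side of the vessel wall and of muscle, had NSI of 8.66 (ENMO), 15.97 (EAEcoI) and 12.5 (EAEcoP), against 3.997 (healthy control), 9.08 (control IgG only) and 2.94 (NMO-IgG only). It was above background on EAEcoI and EAEcoP. For a fold, each all non-T array was raised to its detection floor, the lowest signal above background on that array. The fold was 1.103, higher with T cells. It is no strict bound, since ENMO, not above background, was taken as read. Lama1, of the meningeal side, was above background on the same 2 arrays, with NSI of 1.88 (ENMO), 6.37 (EAEcoI) and 11.9 (EAEcoP), against 1.61 (healthy control), 2.54 (control IgG only) and 2.48 (NMO-IgG only), and no fold is given for it because the other arrays' detection floors lay above the mean of all T.

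Lama3 and Lamb3 code for chains of the laminin of epithelial anchorage. Lama3 had NSI of 34.99 (ENMO), 26.6 (EAEcoI) and 22.96 (EAEcoP), against 31.9 (healthy control), 29.3 (control IgG only) and 25.9 (NMO-IgG only). The 2 Lamb3 targets had NSI of 1102 (ENMO), 1109 (EAEcoI) and 775 (EAEcoP), against 647 (healthy control), 1441 (control IgG only) and 1214 (NMO-IgG only) for XM_223087, and of 50.03 (ENMO), 38.9 (EAEcoI) and 48.7 (EAEcoP), against 48.5 (healthy control), 43.5 (control IgG only) and 37.9 (NMO-IgG only) for ENSRNOT00000008440. In these 3 targets the difference of all T minus all non-T lay between -0.085 and 0.082, and the arrays overlapped. Lamc3, a gamma chain of nerve and retina, had NSI of 144 (ENMO), 119.8 (EAEcoI) and 73.6 (EAEcoP), against 88.5 (healthy control), 109.7 (control IgG only) and 92.9 (NMO-IgG only), highest in ENMO. Lamc1 (XM_341133) had NSI of 48.4 (ENMO), 32.7 (EAEcoI) and 6.73 (EAEcoP), against 32.01 (healthy control), 17.7 (control IgG only) and 41.6 (NMO-IgG only) and was below background in control IgG only. It was lowest in EAEcoP, and without that array its log2 difference went from -0.38 to 0.47.

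Of the remaining collagens, 2 stood furthest apart with T cells. Col14a1, a fibril-associated collagen that coats the surface of type I fibrils, had NSI of 101 (ENMO), 68.5 (EAEcoI) and 73.2 (EAEcoP), against 256 (healthy control), 370.3 (control IgG only) and 381 (NMO-IgG only). The highest all T array, ENMO, was still below the lowest all non-T array, the healthy control, and the log2 difference was -2.05 (SE 0.50, limma adjusted p = 0.2098), 4.15-fold lower with T cells. Col9a2, a fibril-associated collagen known from cartilage and vitreous, had NSI of 1295 (ENMO), 1249 (EAEcoI) and 612 (EAEcoP), against 3008 (healthy control), 4756 (control IgG only) and 3131 (NMO-IgG only), a log2 difference of -1.83 (SE 0.54, limma adjusted p = 0.276), 3.56-fold lower with T cells. A target that the array names as Col9a2 only in its description, outside the rule (XM_342902), went the other way, with NSI of 55.4 (ENMO), 77.4 (EAEcoI) and 151 (EAEcoP), against 35.6 (healthy control), 34.2 (control IgG only) and 20.7 (NMO-IgG only). Over the 16 alternative settings tried, the difference of Col5a3 lay between -2.60 and -1.71, that of Col14a1 between -2.30 and -1.42 and that of Col9a2 between -2.31 and -1.48, with adjusted p from 0.112 to 0.741 over the 3 targets.

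Type VI collagen forms beaded microfibrils around cells and binds basement membranes, and its 3 chains, which are made together in 1 trimer, did not go together here. Col6a1 had NSI of 366 (ENMO), 38.9 (EAEcoI) and 40.6 (EAEcoP), against 126 (healthy control), 287 (control IgG only) and 156 (NMO-IgG only). It was low on the EAE arrays and highest in ENMO. Col6a2 had NSI of 306 (ENMO), 253 (EAEcoI) and 343 (EAEcoP), against 382 (healthy control), 395 (control IgG only) and 358 (NMO-IgG only), a small difference of -0.34 (SE 0.48) with groups that just did not overlap. Col6a3 had NSI of 123 (ENMO), 145 (EAEcoI) and 67.2 (EAEcoP), against 161 (healthy control), 106 (control IgG only) and 161 (NMO-IgG only), lowest in EAEcoP.

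Col8a2, of the short-chain collagen network below endothelia, was 114 (ENMO), 118 (EAEcoI) and 116 (EAEcoP), against 102 (healthy control), 85.3 (control IgG only) and 97.3 (NMO-IgG only), with groups apart and all values within 1.63-fold. Col20a1, a fibril-associated collagen, was 213 (ENMO), 196 (EAEcoI) and 214 (EAEcoP), against 145 (healthy control), 199 (control IgG only) and 203 (NMO-IgG only), and Col23a1, a transmembrane collagen, was 62.7 (ENMO), 83.5 (EAEcoI) and 34.8 (EAEcoP), against 43.2 (healthy control), 43.02 (control IgG only) and 64.1 (NMO-IgG only). Both overlapped between the groups. The other Col23a1 probe, also above background on all 6 arrays, was lower on each all T array than on any all non-T array. Its log2 difference was -0.41. Col10a1, the collagen of hypertrophic cartilage, was above background on 4 arrays for the target ENSRNOT00000000655, with NSI of 28.1 (ENMO), 26.7 (EAEcoI) and 27.3 (EAEcoP), against 8.07 (healthy control), 12.1 (control IgG only) and 26.2 (NMO-IgG only), where the groups were apart, and on 5 for XM_001053056, with NSI of 31.1 (ENMO), 33.5 (EAEcoI) and 36.7 (EAEcoP), against 37.4 (healthy control), 19.1 (control IgG only) and 30.1 (NMO-IgG only), where they overlapped. Col16a1, a fibril-associated collagen, had the highest difference in this class among targets above background on at least 3 arrays, 1.21 (SE 0.83), and it came from EAEcoP, with NSI of 13.4 (ENMO), 8.62 (EAEcoI) and 77.1 (EAEcoP), against 15.5 (healthy control), 8.88 (control IgG only) and 5.21 (NMO-IgG only). Col7a1, of the anchoring fibrils of skin, was above background on EAEcoI and EAEcoP, with NSI of 12.1 (ENMO), 11.2 (EAEcoI) and 28.3 (EAEcoP), against 4.24 (healthy control), 7.07 (control IgG only) and 3.399 (NMO-IgG only). With the all non-T arrays raised to their detection floors and ENMO taken as read, it was 1.44-fold higher with T cells. The other targets above background on 3 or 4 arrays (Col8a1, Col9a1 and XM_342599 of Col9a3) had differences from 0.12 to 0.30, and Col18a1, above background on 3 arrays, had 0.63.

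**Figure D2:**
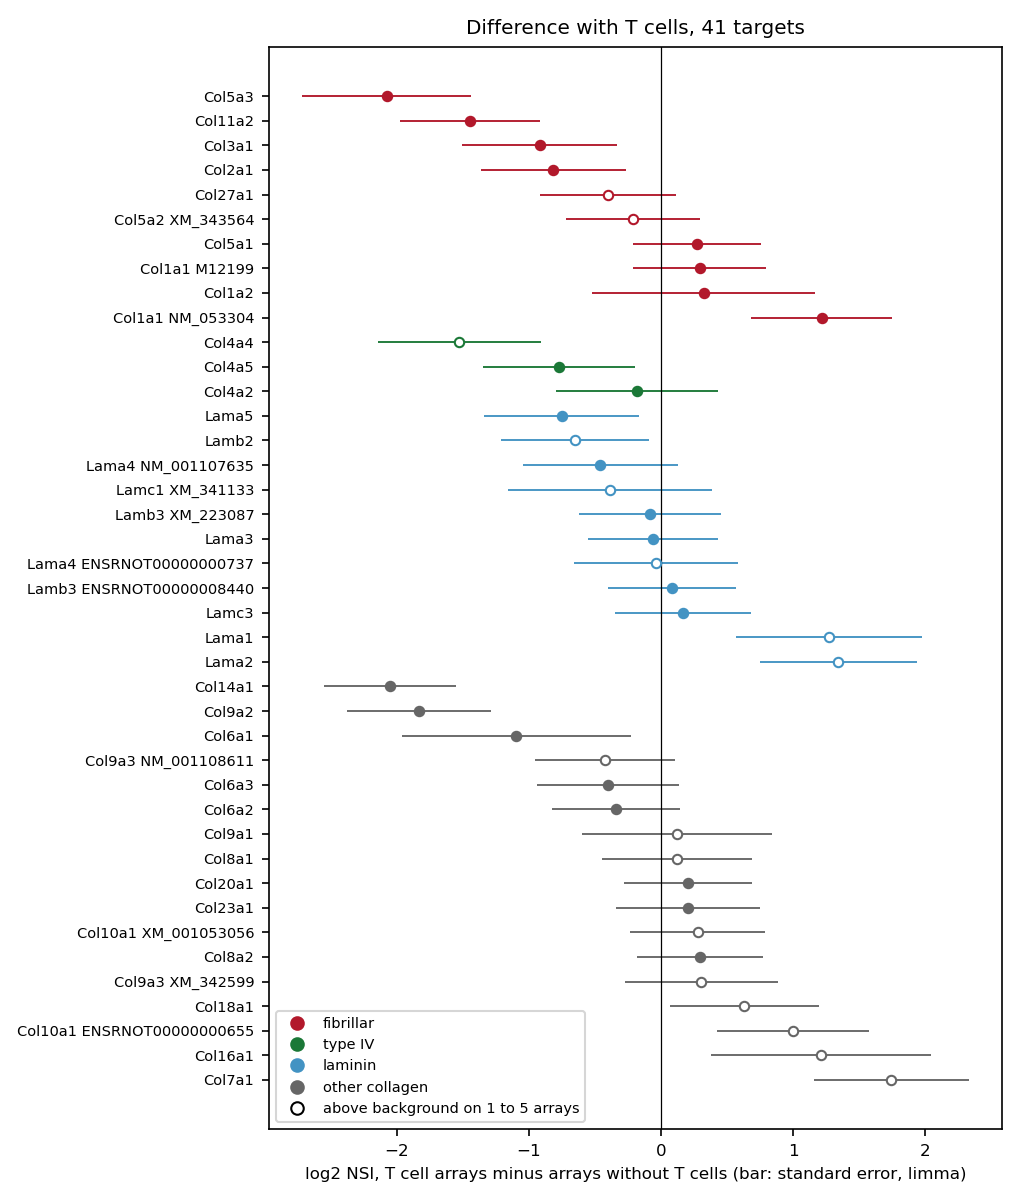
log2 NSI of the all T arrays minus the all non-T arrays (n = 3 arrays each, points) with the standard error of the limma fit (bars) for 41 of the 42 chain targets above background on at least 1 array, by class. Open points were above background on 1 to 5 arrays; most positive values above 1 are open points, and no target passed an adjusted p of 0.05.

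No member passed the test for T cells. Limma called 0 of the 42 chain targets tested at an adjusted p under 0.05, as it called 0 of all 24967 (0%). At an unadjusted p under 0.05 there were 8 chain targets, and 2826 of all targets (11.3%). Leaving out ENMO, limma called 179 targets and leaving out EAEcoI 3, with no collagen or laminin target among them. Of the 24 chain targets above background on all 6 arrays, 6 had every all T array below every all non-T array (Col5a3, Col11a2, Col2a1, Col14a1, Col9a2 and Col6a2), where 10.4% of all such targets did. In 2 (Col1a1, target NM_053304, and Col8a2) every all T array was above, where 8.06% of all such targets were. Over the targets above background on at least 1 array, 7 of 42 were below (all targets 7.04%) and 5 above (all targets 10.9%), the added ones including Col4a4 below and Col10a1 (ENSRNOT00000000655) and Col7a1 above. The share of chain targets that were lower stood above that of all targets in both counts, and the share that were higher stood close to it, as a description of targets that share 6 arrays.

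The fibrillar class lay lower against the basement membrane class on each all T array than on each all non-T array. For each array, the deviation of a target from its own mean over the 6 arrays was taken on the log2 scale, and the median over the class was computed. The fibrillar median (10 targets) was 0.0018 in ENMO, -0.20 in EAEcoI and -0.51 in EAEcoP, against 0.31 in the healthy control, 0.10 with control IgG only and 0.16 with NMO-IgG only. The median of the type IV and laminin targets (15 targets) was 0.21, -0.059 and -0.38 on the same all T arrays, against 0.17, 0.047 and -0.13 on the all non-T arrays in that order, and the groups overlapped. Fibrillar minus basement membrane was thus -0.21, -0.14 and -0.13 with T cells and 0.13, 0.058 and 0.29 without, in the same orders, a difference of the means of -0.32, which was -0.19 without ENMO and -0.069 once the trend with probe GC was removed. These are descriptions with no test, and no error between rats can be given for them.

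As a median over targets of all T minus all non-T, the fibrillar class was at -0.31, with 6 of 10 targets below 0, and the basement membrane class at -0.085, with 10 of 15 below 0. All targets tested had a median of -0.025. Over targets above background on all 6 arrays, the medians were -0.27 for the 8 fibrillar, -0.13 for the 8 basement membrane and -0.29 for all such targets, so that on this set the fibrillar class lay no lower than all targets. The fibrillar median over the 10 targets turned to 0.048 with a trend over the array surface removed and was -0.093 with normexp background correction. Within slide 1 (ENMO, EAEcoP and control IgG only) the fibrillar median was -0.089 and within slide 2 (EAEcoI, NMO-IgG only and the healthy control) -0.28, and for the basement membrane class these were -0.047 and -0.14. Compared within the NMO-IgG arm (ENMO against NMO-IgG only), the control IgG arm and the arm without antibody, the fibrillar median was -0.079, -0.47 and -0.49, and the basement membrane median 0.22, 0.087 and -0.48. The basement membrane median changed sign between arms and was 0.078 without EAEcoP, 0.012 without the healthy control and -0.23 without ENMO.

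**Figure D3:**
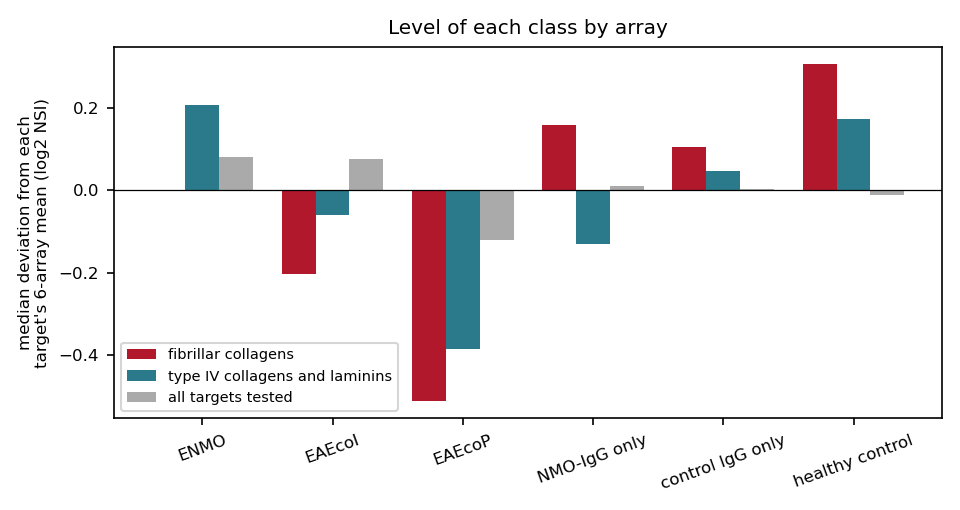
Median log2 deviation of each class from its targets' own means over the 6 arrays, by array, for the 10 fibrillar targets, the 15 type IV and laminin targets and all 24967 targets tested. Red bars (fibrillar) stand at 0.0018, -0.20 and -0.51 on the all T arrays and above 0 on the all non-T arrays; the blue-green bars (basement membrane) are of both signs in both groups, and no error is drawn because each array is 1 pool.

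The comparison of ENMO with EAE asks what NMO-IgG adds to the same T cells. ENMO exceeded both EAE arrays by more than the spot spread in 5 of the 24 chain targets above background on all 6 arrays, Col1a2, Col3a1, Col5a3, Col4a5 and Col6a1, where 15.5% of all such targets did so, a share close to that of the chains. It was below both by that much in 0, where 6.55% of all such targets were. Col6a1 differed most, 9.41-fold over EAEcoI and 9.01-fold over EAEcoP. Col1a2 was 3.14-fold and 3.56-fold higher, Col3a1 3.11-fold and 2.22-fold, and Col5a3 2.82-fold and 3.09-fold. For Col1a2 and Col3a1, ENMO was close to NMO-IgG only (1.03 and 0.868 of its NSI).

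Limma called 0 of 24938 targets for ENMO against EAE (0%), with the lone ENMO array assumed to vary like the other groups. At an unadjusted p under 0.05, 2 of the 42 chain targets (Col6a1 and Lama1) and 1432 of all targets (5.74%) were below. The log2 difference of Col6a1 was 3.20 (SE 0.80, limma adjusted p = 0.653). By class, the median of ENMO minus EAE over targets above background on all 6 arrays was 0.63 for the fibrillar and 0.56 for the basement membrane targets, beside 0.41 for all such targets. All 6 laminin targets in that count were positive, from 0.20 to 1.01, while 66.9% of all such targets were. The median over all such targets went from 0.79 for probes of up to 40% GC to -0.61 for probes above 60% GC. The probes of Col1a2, Col6a1 and Col3a1 had 35, 43.3 and 45% GC, and those of Col5a3 and Col4a5 50 and 51.7%. The part of probe GC in these differences was not tested.

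NMO-IgG was set against control IgG both with T cells (ENMO and EAEcoI) and without them (NMO-IgG only and control IgG only). Only Col1a2 of the 24 targets was higher with NMO-IgG by more than the spot spread in both, 3.14-fold with T cells and 2.29-fold without, where 3.1% of all such targets were. None was lower in both, where 3.28% of all such targets were. Its other probe gave 159 in ENMO against 87.9 in EAEcoI, and 223 in NMO-IgG only against 192 in control IgG only, the last pair within the spot spread. Col3a1 was 3.11-fold higher with T cells and 1.56-fold higher without. Lama5 was 1.24-fold higher with and 2.08-fold higher without T cells. Col5a3 and Col6a1 went opposite ways with and without T cells.

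Limma called 0 targets for NMO-IgG against control IgG (0% of 24966), with 328 at an unadjusted p under 0.05 and none of them a chain target. The largest differences by class over both backgrounds, among targets above background on at least 3 arrays, were 1.42 (Col1a2, SE 0.79) and -0.44 (Col1a1, NM_053304) for the fibrillar, 0.30 (Col4a5) and -0.042 (Col4a2) for the type IV, 0.90 (Lamc1) and -0.13 (Lamb3, XM_223087) for the laminin and 1.17 (Col6a1, SE 1.01) and -1.06 (Col8a1) for the other collagen targets. Col8a1 had NSI of 13.9 (ENMO), 23.7 (EAEcoI) and 14.8 (EAEcoP), against 13.2 (healthy control), 27.2 (control IgG only) and 10.7 (NMO-IgG only), higher with control IgG in both backgrounds. For control IgG against no antibody, limma called 0 (0%), with 624 at an unadjusted p under 0.05 and 1 chain target among them. That was Col16a1 (-1.98), above background on 3 arrays. All of these comparisons share arrays with each other.

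**Figure D4:**
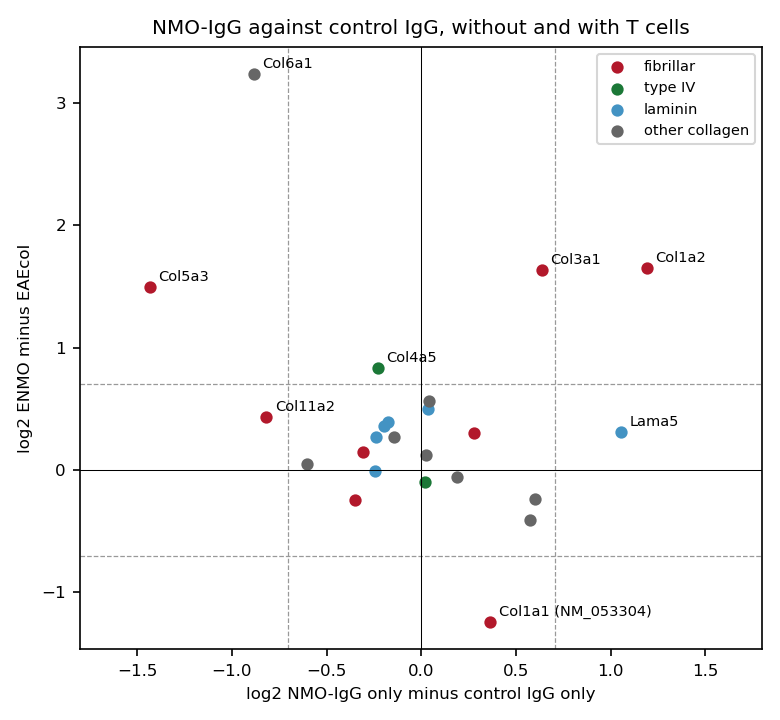
log2 difference of NMO-IgG against control IgG without T cells (horizontal axis) and with T cells (vertical axis) for the 24 targets above background on all 6 arrays, each value from 1 array against 1 array. Dashed lines mark the spot spread of 0.71; Col1a2 is alone beyond it in the upper right, and Col6a1 and Col5a3 lie beyond it in the upper left.

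Probes of one chain gave a measure of how far a value depended on the sequence read. Of 6 chains with 2 probes above background on all 6 arrays, 3 had all T minus all non-T differences of opposite sign, and the gap within a pair was at most 1.03 (Col1a2) on the log2 scale. The probes of Col18a1, whose C-terminal part is the fragment endostatin, are shown because they share 37 bases (capitals) and yet differed. They lie on the forward strand at chr20:11981394-11981453 and chr20:11981417-11981476 in the build the files name as rn, and have 55 and 45% GC.
Col18a1, A_44_P1004324: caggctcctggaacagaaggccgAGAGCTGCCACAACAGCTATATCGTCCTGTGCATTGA
Col18a1, A_44_P1004323: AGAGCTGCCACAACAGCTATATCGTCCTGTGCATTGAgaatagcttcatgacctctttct

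The first was above background on 3 arrays, with NSI of 20.6 (ENMO), 23.2 (EAEcoI) and 12.1 (EAEcoP), against 18.3 (healthy control), 7.47 (control IgG only) and 11.5 (NMO-IgG only). The second was above it on all 6, with NSI of 11.7 (ENMO), 9.14 (EAEcoI) and 9.07 (EAEcoP), against 17.05 (healthy control), 23.2 (control IgG only) and 17.01 (NMO-IgG only). The second was lower on each all T array than on any all non-T array, and the first was not. Both were dim, and their all T minus all non-T differences were 0.63 and -0.93. The 2 probes of Col14a1 had the same direction, but only the one reported above was above background. One of the Lamb3 probes read 603 in the healthy control and 14.6 to 43.96 elsewhere, while the others did not.

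**Figure D5:**
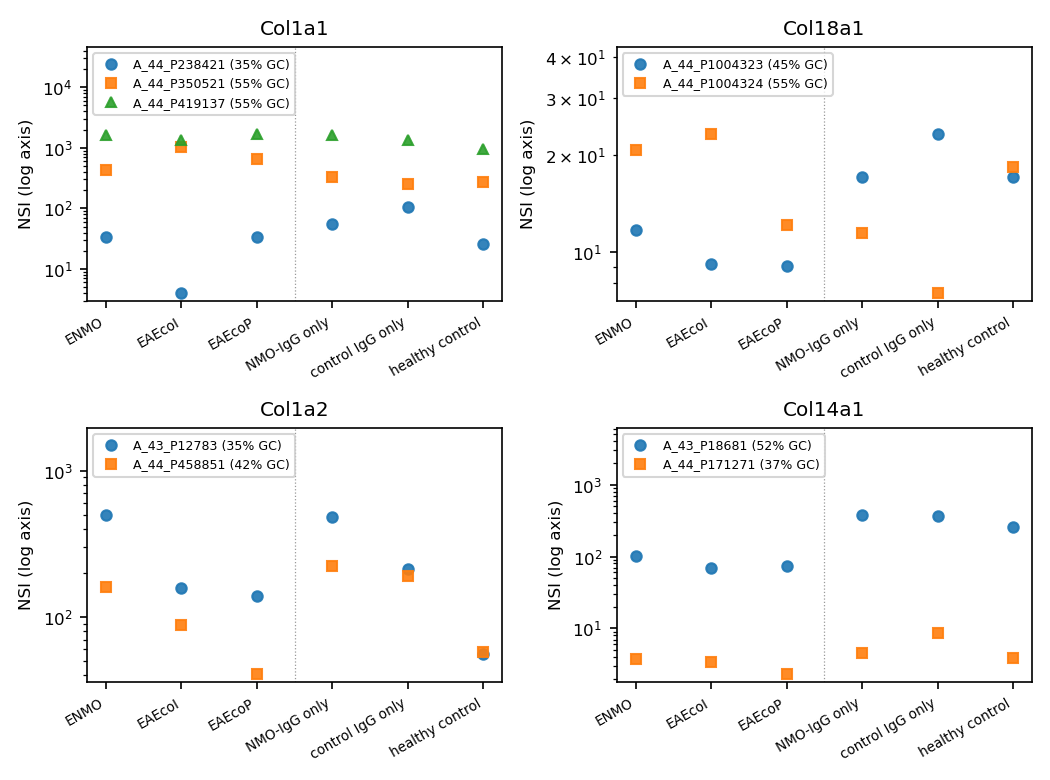
NSI (log axis) by array of each probe of Col1a1, Col18a1, Col1a2 and Col14a1, with the share of G and C in the probe; the dotted line separates the all T arrays (left) from the all non-T arrays (right). The Col18a1 probes share 37 bases, and one is lower on the left while the other is not.

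The sequences before the transcription start were compared for Col5a3, Col9a2 and Col11a2, which were lower on every all T array. Those of Col2a1, Col14a1 and Col6a2, also lower on every all T array, were not analysed here. RefSeq promoters of the assembly GRCr8 were given for 34 of the 43 chain names (36 promoters). In the 250 bases before the start, the GC box (GGGCGG, both strands) was in 58.3% of these and 30.5% of all 33469 promoters, the CCAAT box (CCAAT, both strands) in 25% and 34.02%, and the TATA box (TATAAA, both strands) in 11.1% and 12.9%. Median GC of these windows was 59.4% for the chains and 51.2% for all. The part of base composition in the share of GC boxes was not tested. The windows, 5′ to 3′ on the strand of the gene, lie at chr8:27625949-27626198 (reverse strand), chr5:139892548-139892797 (forward) and chr20:4817649-4817898 (reverse), with matches to any of the 3 motifs in capitals.
Col5a3: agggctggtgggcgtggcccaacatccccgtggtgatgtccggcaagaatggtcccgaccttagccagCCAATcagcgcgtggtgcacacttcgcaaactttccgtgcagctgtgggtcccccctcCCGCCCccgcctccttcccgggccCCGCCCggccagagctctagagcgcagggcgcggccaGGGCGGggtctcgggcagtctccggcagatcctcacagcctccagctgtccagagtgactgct
Col9a2: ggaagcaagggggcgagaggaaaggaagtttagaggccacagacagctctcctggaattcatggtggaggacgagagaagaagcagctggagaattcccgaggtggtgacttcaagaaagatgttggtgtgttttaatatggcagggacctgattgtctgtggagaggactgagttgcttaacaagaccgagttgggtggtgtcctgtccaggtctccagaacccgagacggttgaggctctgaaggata
Col11a2: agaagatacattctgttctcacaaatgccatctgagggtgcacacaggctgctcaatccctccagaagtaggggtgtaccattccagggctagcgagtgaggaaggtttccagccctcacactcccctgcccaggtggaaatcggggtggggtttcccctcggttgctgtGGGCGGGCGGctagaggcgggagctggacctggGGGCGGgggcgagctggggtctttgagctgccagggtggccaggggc

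Col5a3 held 3 GC boxes and 1 CCAAT box, Col11a2 3 GC boxes, of which 2 overlap, and Col9a2 none of the 3 motifs, so these 3 promoters did not share a motif of those searched. A match is a run of letters and not a measured binding site.

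Genes that make, anchor and remove the matrix were taken as lists. Limma called 0 targets of any of these lists for T cells or for ENMO against EAE. Of the 22 collagen synthesis targets tested (prolyl and lysyl hydroxylases, chaperones, procollagen proteases and cross-linking enzymes), 3 had every all T array with a value below every all non-T array. In 4 every one was above. Bmp1, counted among those below, had no ENMO value. Of all targets tested with a value on every array, 7.04% were below and 10.9% above. The median difference of the 22 targets was -0.21. P3h1, a prolyl 3-hydroxylase, had NSI of 102 (ENMO), 117 (EAEcoI) and 111 (EAEcoP), against 466 (healthy control), 382 (control IgG only) and 154 (NMO-IgG only), and Plod1, a lysyl hydroxylase, of 34.1 (ENMO), 68.7 (EAEcoI) and 31.7 (EAEcoP), against 133 (healthy control), 71.5 (control IgG only) and 75.8 (NMO-IgG only). Both were lower with T cells on every array. Bmp1, which cleaves the C-terminal propeptide of fibrillar procollagens, had log2 difference -1.54, without its ENMO spot, which the scanner marked as an outlier. Adamts14, an N-propeptide protease, had the highest difference among those above background on at least 3 arrays (1.75), and Serpinh1, the collagen chaperone HSP47, was near 0 (-0.095).

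The receptors that cells use for collagen and laminin held 4 targets with every all T array below and 2 with every one above, of 16 tested, beside the same shares of all targets, and the share above was close to that of all targets. Those below were Itgb1, Itga6, Itga7 and Itgb4, which are found in laminin-binding integrins. Itga3, another laminin-binding alpha chain, had a log2 difference of 0.56, and its groups overlapped. Itgb4 had NSI of 864 (ENMO), 1242 (EAEcoI) and 656 (EAEcoP), against 4268 (healthy control), 2253 (control IgG only) and 1838 (NMO-IgG only). Itga7 had NSI of 723 (ENMO), 268 (EAEcoI) and 459 (EAEcoP), against 1104 (healthy control), 1918 (control IgG only) and 1168 (NMO-IgG only). Itgb1, the beta chain that most collagen and laminin receptors share, had NSI of 99.7 (ENMO), 88.1 (EAEcoI) and 24.3 (EAEcoP), against 114 (healthy control), 211 (control IgG only) and 304 (NMO-IgG only). Those above were Itga1 and Itga11, collagen-binding alpha chains. Itga1, above background on 3 arrays, had NSI of 35.5 (ENMO), 155 (EAEcoI) and 269.8 (EAEcoP), against 5.27 (healthy control), 21.9 (control IgG only) and 3.55 (NMO-IgG only). The log2 differences of the targets apart were -1.70 (Itgb1), -1.60 (Itga7), -1.55 (Itgb4), -1.39 (Itga6), 1.29 (Itga11) and 3.94 (Itga1), with limma adjusted p from 0.187 to 0.453. Other collagen receptors overlapped between the groups, with 0.94 for Itga2, -0.74 for Itga10 and -0.42 for Ddr1. Of these, Itga2 was above background on 2 arrays and Itga10 on 1.

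Among the basement membrane partners, 1 of 11 targets tested was apart, Smoc2, a calcium-binding matrix protein, lower with T cells (-1.98). Of all targets tested, 7.04% were below and 10.9% above on every all T array, and the counts in this paragraph were near these shares. Nidogen 1 (Nid1, ENSRNOT00000003349), which ties laminin to type IV collagen, had NSI of 816 (ENMO), 382 (EAEcoI) and 232 (EAEcoP), against 162 (healthy control), 421 (control IgG only) and 331 (NMO-IgG only), highest in ENMO. The small leucine-rich proteoglycans, which bind fibrillar collagen, had a median of -0.75 over 6 targets and none apart. Fmod, fibromodulin, had a log2 difference of -1.43 and Ogn, osteoglycin, of -2.16. Of 18 matrix protease and inhibitor targets, 2 were above on every all T array, close to the 10.9% of all targets tested. The largest difference among those above background on at least 3 arrays was that of Mmp13, collagenase 3 (2.03). Timp2, an inhibitor of metalloproteinases, had NSI of 9700.0 (ENMO), 621 (EAEcoI) and 1021 (EAEcoP), against 2715 (healthy control), 3256 (control IgG only) and 3882 (NMO-IgG only), an ENMO value far over both EAE arrays. Of 11 targets tested of the TGF-beta list, 1 was above on every all T array, the co-receptor Tgfbr3 (0.79), again close to the 10.9% of all targets tested.

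Markers of cells that may hold matrix genes were read beside these results. The summed NSI of all T and all non-T over all targets of a list overlapped for each cell marker list given here but that of macrophages and microglia. Of the matrix lists above, the sums of receptors, small leucine-rich proteoglycans and collagen synthesis (without the ENMO value of Bmp1) were lower on each all T array. Those of the other matrix lists overlapped. Without its brightest target the receptor sum stayed apart, and the sums of collagen synthesis and of these proteoglycans overlapped. The summed NSI of the 9 fibroblast and meningeal markers was 434 to 1062 on the all T arrays and 971 to 2099.6 on the all non-T arrays, and Fbln1 of this list is also a basement membrane partner. Its defining members Pdgfra and Aldh1a2 were above background on no array, and Dcn and Lum on 1 and 2. Igf2, also made by the meninges and choroid plexus, was lower on every all T array, with NSI of 31.2 (ENMO), 2.94 (EAEcoI) and 11.9 (EAEcoP), against 214 (healthy control), 230.5 (control IgG only) and 153 (NMO-IgG only). Macrophage and microglia markers summed to 4373 to 15714 on the all T arrays and 2302 to 3904 on the all non-T arrays. One Tyrobp target (NM_212525) carried most of these sums, and without it they were 1133 to 1857 on the all T arrays and 949 to 1352 on the all non-T arrays, where the groups overlapped. Of the targets in this list, 6 of 10 were above on every all T array, where 10.9% of all targets tested were. Of the 5 in this list above background on all 6 arrays, 1 was above on every all T array, where 8.06% of all such targets were. The median difference of those 5 was -0.082. Endothelial markers summed to 514 to 745 on the all T arrays and 575 to 692 on the all non-T arrays, with Pecam1 and Tek lower on every all T array and no other apart. Pericyte and smooth muscle markers summed to 524 to 1544 on the all T arrays and 481 to 2367 on the all non-T arrays, Schwann cell markers to 127 to 168 on the all T arrays and 139 to 257 on the all non-T arrays, and cartilage and bone markers to 298 to 559.5 on the all T arrays and 319 to 424 on the all non-T arrays, of which Hapln1 and Ibsp were above background on no array and Acan and Comp on 1. Skeletal muscle markers summed to 1001 to 1346 on the all T arrays and 1010.2 to 2095 on the all non-T arrays, with Mylpf and Tnnt3 above background on none. Such sums follow their brightest targets. Without Ptgds the fibroblast and meningeal sum was 105 to 228 on the all T arrays and 354 to 468 on the all non-T arrays, with groups apart. Igf2 stayed in that sum, and no other tested target of the list had groups apart. The part of Igf2 in that sum was not tested. Without the brightest target of each, the endothelial (Cdh5) and skeletal muscle (Tnni2) sums were also lower on each all T array than on any all non-T array, and those of pericytes and smooth muscle (Cspg4) and of cartilage and bone (Chad) overlapped. The part of cell composition, of probe GC and of the EAEcoP array in the differences of the collagen and laminin targets was not tested.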

How the data were processed

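RNA of formaldehyde-fixed spinal cord was amplified once and hybridised to 6 one-colour Agilent arrays, 1 pool of rats each. The authors deposited each array's scanner table of 45018 spots, whose intensities (processed signal) were corrected for background by the scanner software but not normalized between arrays, with marks for outliers and for spots well above background. A second deposited table with 1 intensity per target was not used.

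Control and outlier spots were left out, log2 signals were averaged per probe and quantile-normalized over the 6 arrays (no other columns of samples exist), and each target was read from its brightest probe. Back on the linear scale this is NSI. Every target with at least 1 array well above background was tested with limma 3.58.1 (R 4.3.3), with Benjamini-Hochberg adjusted p over all targets and a threshold of 0.05. All T was set against all non-T (3 arrays each), ENMO against EAE, and NMO-IgG, control IgG and no antibody against each other with T cells as a term. P-values measure the spread between pools under different treatments, not between rats. Where no array of one group was above background, its arrays were raised to the lowest signal above background on each. The other group was taken as read, also on arrays not above background, so such a fold is no strict bound. The number of arrays limits the precision. On data simulated for the T cell comparison, 0 of 50 targets with an added log2 difference of 2 were called, 6 of 50 with 3 and 32 of 50 with 5, with 0 false calls.

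Members, lists and rules were chosen with earlier results of these data known. Values on every array are given for chain targets above background on all 6 arrays, for those on at least 3 with the groups apart, and for the largest difference in each direction of each class; a few others are named because a count or a comparison turns on them, and 1 chain, which stays in the counts and medians, is not reported here. Alternatives were other scalings and background corrections, outlier spots kept, means over probes, other filters, slide or antibody as a block and each array left out. Added later were 2 more, both chosen after seeing the data. These were a trend with probe GC removed and a trend over the array surface (windows of 5 rows and 5 columns) removed. The sums of marker and matrix lists without their brightest target were also chosen after seeing the data.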

Additional observations from a re-analysis of the deposited data

Results flagged for a closer look

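Col6a1 and Col5a3 were flagged because NMO-IgG against control IgG went opposite ways with and without T cells, past the spot spread in each. For Col6a1, ENMO minus EAEcoI was 3.23 and NMO-IgG only minus control IgG only -0.89 on the log2 scale. For Col5a3 these were 1.49 and -1.43. Each is 1 array against 1 array, so the difference between the backgrounds was not tested. The same pattern was met by 1188 of 11078 targets above background on all 6 arrays (10.7%), and by 2 of the 24 chain targets.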

How the results depend on the processing

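The count of 0 chain targets called held under every alternative in all 4 comparisons. Over all targets, 0 calls became 57 (NMO-IgG against control IgG) and 44 (control IgG against no antibody) with slide as a block, and leaving out 1 array gave 0 to 179 for T cells, 0 to 245 for NMO-IgG against control IgG, 0 to 282 for control IgG against no antibody and 0 throughout for ENMO against EAE. The median difference of the fibrillar targets moved from -0.31 to -0.093 with normexp correction, 0.048 with the surface trend removed, -0.089 within slide 1 and -0.079 within the NMO-IgG arm, and that of the basement membrane targets from -0.085 to -0.43 with the GC trend removed, 0.22 within the NMO-IgG arm and -0.48 within the arm without antibody. Fibrillar minus basement membrane moved from -0.32 to -0.13 with normexp, -0.41 with means over probes, -0.12 and -0.069 with the surface and GC trends removed. Leaving out 1 array gave -0.44 to -0.26 for the fibrillar median, -0.23 to 0.078 for the basement membrane median and -0.44 to -0.19 for fibrillar minus basement membrane. The causes were not tested. Among the 34 chain targets above background on at least 3 arrays, 16 kept the sign of the difference with T cells under every alternative, Col5a3, Col14a1, Col9a2 and Col11a2 among them. Replicate numbers pair no samples, since each group has 1 array. With antibody as a block, which pairs a T with a non-T array in each arm, limma called 0 targets for T cells, with 2573 at an unadjusted p under 0.05, of which 4 were chain targets. With the GC trend removed, the median of all targets went from -0.025 to -0.094 for T cells. Dim targets are limited by signal over background, and pools of rats leave the spread between animals unknown.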

Other observations

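Outside the rule, 20 targets carry a collagen or laminin chain only in the array's description. Of these, 4 were above background on all 6 arrays and 7 on none. Col4a6, a type IV chain of smooth muscle basement membranes, had NSI of 305 (ENMO), 477 (EAEcoI) and 245 (EAEcoP), against 313 (healthy control), 217 (control IgG only) and 246 (NMO-IgG only). A Col9a1 target (ENSRNOT00000060536) had NSI of 946 (ENMO), 898 (EAEcoI) and 535 (EAEcoP), against 865 (healthy control), 782 (control IgG only) and 627 (NMO-IgG only). Both overlapped between the groups. Col13a1, a transmembrane collagen of the neuromuscular junction and other adhesion sites, had NSI of 49.8 (ENMO), 59.6 (EAEcoI) and 20.7 (EAEcoP), against 328 (healthy control), 37.1 (control IgG only) and 36.5 (NMO-IgG only), with the healthy control apart from the rest. A second Col6a3 target (XM_236596), above background on 5 arrays, had NSI of 36.1 (ENMO), 89.4 (EAEcoI) and 154 (EAEcoP), against 26.2 (healthy control), 45.7 (control IgG only) and 66.4 (NMO-IgG only), a log2 difference of 0.88 where the Col6a3 target in the rule had -0.40. Lama3 (ENSRNOT00000015750), above background on 2 arrays, had NSI of 4.103 (ENMO), 22.2 (EAEcoI) and 84.3 (EAEcoP), against 4.84 (healthy control), 7.73 (control IgG only) and 5.29 (NMO-IgG only).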
